A study of Mus musculus with 12 samples.

Results

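Gas5, Snhg1, Snhg3, Snhg6, Snhg8 and Snhg12 are long noncoding genes that carry small nucleolar RNAs (snoRNAs) in their introns. They were taken by name from the gene column of the expression table, with earlier results of these data known, by a rule that itself holds no measured value. All 6 had a row among the 21671 genes of the table, and all 6 were among the 9745 genes tested. RNA was sequenced from FL5.12, an interleukin 3-dependent mouse line of BALB/c origin described as prolymphocytic, in 4 conditions of 3 libraries each. Every condition carried MycER, a Myc protein fused to a hormone-binding domain that 4-hydroxytamoxifen (OHT) switches on, expressed constitutively from a retroviral vector in an antibiotic-selected pool. Untreated cells received neither agent. OHT cells received 100 nM OHT for 72 h, of which 48 h preceded seeding. IACS cells received 135 nM IACS-010759, an inhibitor of respiratory complex I, for 24 h without OHT. OHT_IACS cells received 100 nM OHT for 72 h and 135 nM IACS-010759 during the last 24 h. No library of FL5.12 cells without MycER was analysed here, so MycER activation and any other action of OHT cannot be told apart.

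Host genes of this kind are transcribed as one precursor. Splicing releases introns that are trimmed to snoRNAs, which guide chemical modification or cleavage of ribosomal RNA, while the joined exons hold only short reading frames. Ribosomes that read these frames stop early, and the spliced RNA is then removed by nonsense-mediated decay, so that blocking translation is known to stabilise it. Many such genes, Gas5 included, begin transcription at a run of pyrimidines (the terminal oligopyrimidine, or TOP, start) that they share with ribosomal protein genes. Gas5 was named for its accumulation in growth-arrested cells.

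The stretches around the transcription starts are given because they show the pyrimidine runs in 5 of the 6 genes. RefSeq (GRCm38.p6) start windows were matched by symbol for 5 genes. Each line holds 100 bases of the strand with the same sense as the RNA, 50 on either side of the start. Capitals mark the run of C or T that begins within 5 bases of the start.
Gas5, chr1:161035116-161035215 (+): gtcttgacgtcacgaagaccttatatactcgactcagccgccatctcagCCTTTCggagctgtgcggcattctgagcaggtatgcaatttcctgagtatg
Snhg1, chr19:8723437-8723536 (+): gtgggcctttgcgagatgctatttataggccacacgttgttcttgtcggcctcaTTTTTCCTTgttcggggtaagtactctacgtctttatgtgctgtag
Snhg3, chr4:132353637-132353736 (-): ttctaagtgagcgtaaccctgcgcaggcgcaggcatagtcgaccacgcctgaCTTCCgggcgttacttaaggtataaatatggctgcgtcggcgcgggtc
Snhg8, chr3:123508287-123508386 (-): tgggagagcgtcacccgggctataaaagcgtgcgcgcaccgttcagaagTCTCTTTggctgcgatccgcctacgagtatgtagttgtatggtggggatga
Snhg12, chr4:132308628-132308727 (+): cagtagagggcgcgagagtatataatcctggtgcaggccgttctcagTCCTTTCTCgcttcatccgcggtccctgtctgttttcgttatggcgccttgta

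The runs held 6 pyrimidines in Gas5, 9 in Snhg1, 5 in Snhg3, 7 in Snhg8 and 9 in Snhg12. A run of at least 5 at this place stood in 26.4% of all 32851 RefSeq windows. A further Gas5 window, upstream at chr1:161034351-161034650, had a run of 3. Within 250 bases before and 50 after the start, the E-box CACGTG, the letters Myc and its partner Max bind, matched none of these 6 windows on either strand, against 7.15% of all windows. The motif TGATGNAA, read by ATF4 with a C/EBP partner, also matched none of them and stood in 3.97% of all windows. The cyclic AMP response element TGACGTCA matched in Gas5, 46 bases before the start, against 1.79% of all windows.

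The unit was RPKM, read numbers divided by gene length and by the library total. The deposited values allowed the whole read numbers, the counted gene lengths and the library totals to be worked out. Read numbers and lengths are the smallest whole ones that fit, so a factor common to a gene's length and all its reads would be missed. Library totals ran from 10376530 to 14550158 reads, and OHT replicate 1 was the shallowest library. Within conditions, read numbers of genes at 0.3 to 0.8 reads per base rose less than in proportion to the library total (median log2 slope 0.817), and those below 0.1 reads per base rose more than in proportion (1.39). The 6 host genes lay between 0.277 and 0.847 reads per base, and each call was also made with normalizations that adjust for expression level. No slope was fitted for the host genes themselves. The B-lymphoid genes Pax5, Rag1, Dntt and Il7r had 0 reads in every library, while Cd79b reached 3.56 RPKM. Csf2rb, a chain of the interleukin 3 receptor, stood at 39 to 48.7 RPKM. Of the other genes listed for interleukin 3-dependent progenitors, Csf2rb2 stood at 19.3 to 24.5 RPKM and Il3ra at 5.27 to 9.6 RPKM. Kit had 0 reads in every library. The 12 B-lymphoid genes summed to 3.95 to 4.66 RPKM in untreated cells and 2.66 to 2.9 RPKM in OHT cells. The 5 myeloid genes, Mpo foremost, went from 15 to 16.6 RPKM to 10.2 to 12.3 RPKM, and the 2 erythroid genes from 0.725 to 0.997 RPKM to 1.26 to 1.67 RPKM. None of these sums overlapped between untreated and OHT cells, and their part in the host genes' differences was not tested.

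The counted lengths of Gas5, Snhg1 and Snhg8 exceeded that of their longest annotated transcript without a retained intron. Snhg1 (chr19:8723475-8726443, plus strand, GENCODE vM21 on GRCm38) was counted over 2956 bases, 99.6% of its span, whereas its longest annotated transcript without a retained intron has 709. Gas5 (chr1:161034422-161038539, plus strand) was counted over 2554 bases against 665 in its longest such transcript. Snhg8 (chr3:123507552-123508404, minus strand) was counted over 785 bases against 528. By this annotation the counted part of Snhg1, at 99.6% of its span, took in introns. A counted length can also join exons of several transcripts, so whether Gas5 and Snhg8 were counted over introns was not tested. For Snhg3 (chr4:132348014-132353686, minus strand, 437 bases) and Snhg12 (chr4:132308623-132311024, plus strand, 935 bases) the counted length equalled that of a spliced transcript, of 3 and 4 exons. Snhg6 (chr1:9941959-9944118, minus strand) was counted over 407 bases, within the 400 to 816 bases of its spliced transcripts. Since the libraries were made from total RNA depleted of ribosomal RNA, unspliced precursor can add to these values. Snhg3 lies inside the Rcc1 gene on the same strand, with starts 81 bases apart in the annotation, so how reads were divided between these overlapping genes is uncertain.

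**Figure D1:**
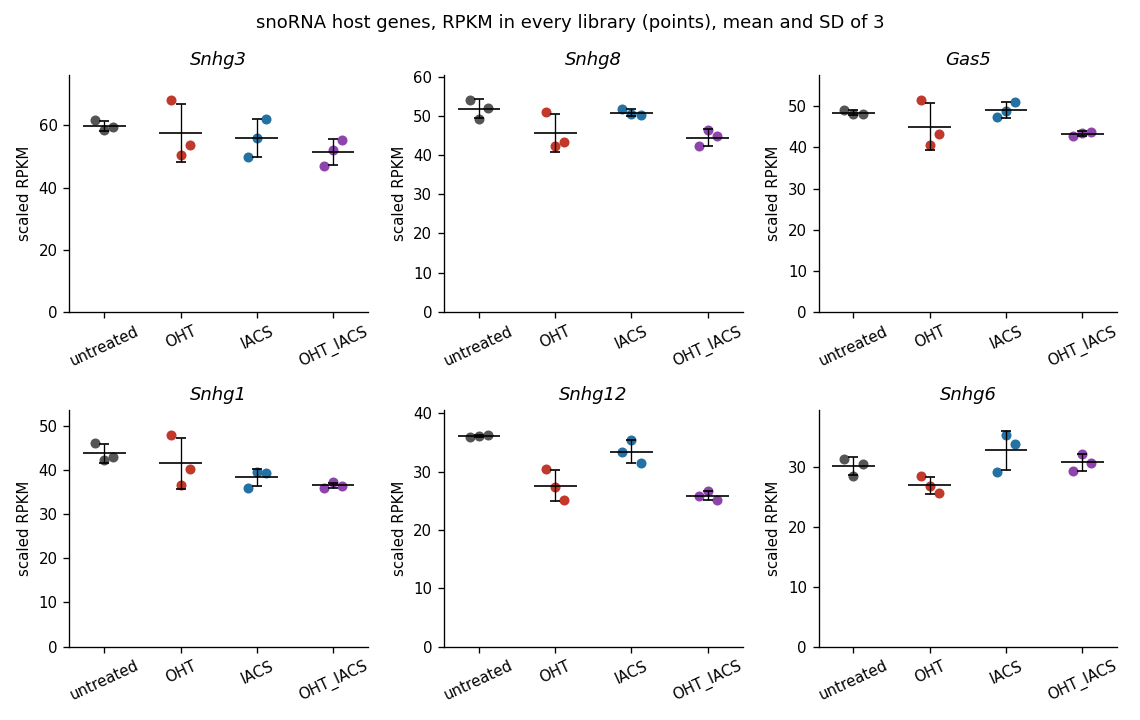
RPKM of the 6 snoRNA host genes after scaling (vertical axes, each from 0) in the 4 conditions. Points are single libraries, and bars give the mean and SD of 3. Snhg12 stood at 35.9 to 36.3 in untreated cells and at 25.2 to 30.4 in OHT cells, without overlap, whereas Snhg3 ranged from 50.5 to 68.1 within OHT alone.

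All 6 genes were well expressed, above 86.6% to 96.7% of the tested genes by mean level. The values cover the unlike counted parts given above, so their order is not to be read as one of spliced RNA. In untreated cells the order by mean scaled RPKM was Snhg3 (59.9 ± 1.64, SD, n = 3), Snhg8 (51.8 ± 2.44), Gas5 (48.5 ± 0.524), Snhg1 (43.8 ± 2.16), Snhg12 (36.1 ± 0.212) and Snhg6 (30.2 ± 1.43). No neighbours in that order overlapped. Snhg3, Snhg8, Gas5 and Snhg1 kept the first 4 places in every condition. With OHT, only Snhg1 and Snhg12 were separate neighbours, and with IACS-010759 Snhg3 and Snhg8, Snhg8 and Gas5, and Snhg12 and Snhg6 overlapped. In OHT_IACS cells Snhg6 (30.8 ± 1.45) stood above Snhg12 (25.9 ± 0.79), the reverse of the untreated order.

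With OHT alone (OHT against untreated), the contrast that addresses MycER activation, Snhg12 was lower. It is the host of Snora16a, Snora44, Snora61 and Snord99. Snhg12 had 35.9, 36.2 and 36.3 RPKM in the untreated libraries and 30.4, 27.3 and 25.2 RPKM in the OHT libraries. Every OHT value lay below every untreated value. The log2 change was -0.39 (SE 0.06, 95% interval -0.53 to -0.25), and Snhg12 fell by 23.7% (limma, adjusted p = 0.00039). This is 1 of the 6 host genes called lower and 0 called higher, where 18.2% of all tested genes were called lower and 18.2% higher. Over 25 other settings the Snhg12 change stayed between -0.49 and -0.33, with adjusted p from 3.7e-05 to 0.0064.

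The other 5 host genes had lower means with OHT but did not pass the test under the median-ratio scaling. Snhg8, the host of Snora24, had 54, 49.2 and 52.1 RPKM in untreated cells and 51.1, 42.4 and 43.4 RPKM with OHT. Only OHT replicate 1 reached into the untreated range (log2 change -0.19, SE 0.07, adjusted p = 0.053). Snhg6, the host of Snord87, had 31.4, 28.6 and 30.6 RPKM without OHT and 28.5, 26.8 and 25.7 RPKM with it. The groups did not overlap by a small margin, and the change was -0.16 (SE 0.07, adjusted p = 0.09). Groups did not overlap for 2 of the 6 host genes, against 46% of all tested genes.

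For Gas5 the untreated libraries gave 49.1, 48.2 and 48.2 RPKM and the OHT libraries gave 51.5, 40.5 and 43.2. OHT replicate 1 lay above all untreated libraries and the other two below them. The log2 change was -0.11 (SE 0.07, 95% interval -0.27 to 0.04, adjusted p = 0.23). Snhg1 went the same way, with 46.2, 42.2 and 42.9 RPKM against 47.9, 36.6 and 40.1 with OHT (-0.08, SE 0.08, adjusted p = 0.44). Snhg3, the host of Snora73a and Snora73b, had 61.7, 58.4 and 59.5 RPKM against 68.1, 50.5 and 53.7 with OHT (-0.07, SE 0.11, adjusted p = 0.63). OHT replicate 1, the shallowest library, gave the highest OHT value of all 6 host genes. OHT replicate 3, nearly as shallow at 10770476 reads, gave the lowest OHT value of Snhg6 and Snhg12 and the middle one of the others.

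The count of host genes lowered by OHT depended on the normalization. The 1627 tested genes with 0.3 to 0.8 reads per base had a median log2 change of 0.099 with OHT, against 0.013 over all tested genes, and 9.28% of them were called lower. The host genes' median was -0.138. Cyclic loess and quantile normalization, which equalise libraries at each expression level, called all 6 host genes lower, beside 19.4% and 18.4% of all tested genes, with log2 changes by cyclic loess of -0.23 (Gas5), -0.18 (Snhg1), -0.20 (Snhg3), -0.23 (Snhg6), -0.30 (Snhg8) and -0.47 (Snhg12). Scaling on the genes of 0.3 to 0.8 reads per base called 5, all but Snhg3, while all tested genes also shifted, with 23.7% called lower and 7.74% higher. The library total as a covariate called 4, without Snhg3 and Snhg6 (11.9% of all tested genes lower), and leaving out OHT replicate 1 called the same 4 (16.2%). The adjusted p for Snhg8 was 0.00035 by cyclic loess, and that for Snhg3 was 0.035.

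**Figure D2:**
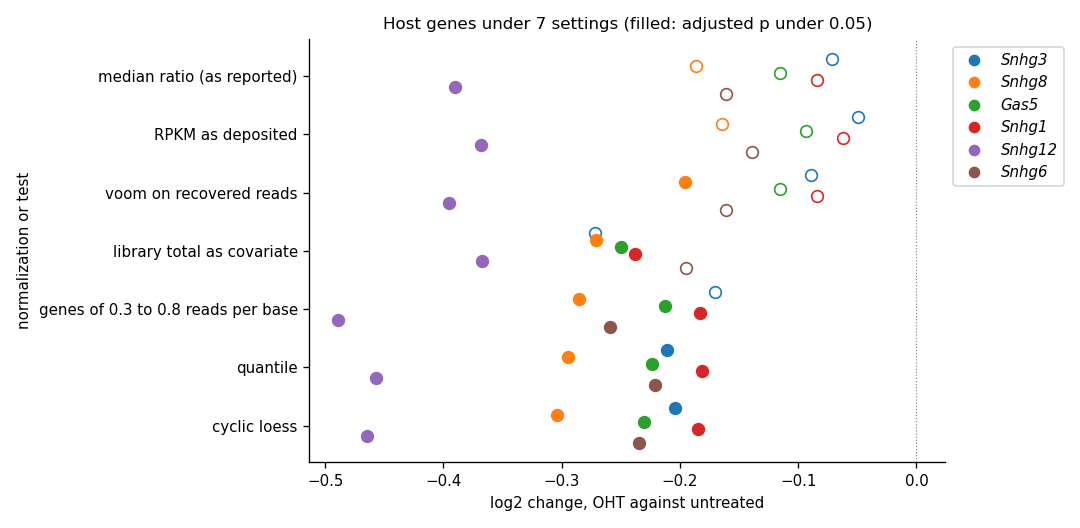
Log2 change of each host gene with OHT against untreated (horizontal axis) under 7 settings (vertical axis), filled where the adjusted p is under 0.05. Snhg12 is filled in every row, and all 6 genes are filled with quantile and cyclic loess normalization.

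The same contrast under complex I inhibition (OHT_IACS against IACS), made with different libraries, again gave lower Snhg12. Snhg12 had 33.3, 35.5 and 31.5 RPKM with IACS-010759 alone and 25.8, 26.7 and 25.1 RPKM with OHT_IACS, with no overlap (log2 change -0.37, SE 0.06, adjusted p = 0.00088). It fell by 22.6%, close to its fall without the inhibitor. The difference between the OHT effects with and without IACS-010759 was 0.02 (95% interval -0.17 to 0.22, adjusted p = 0.93). Gas5 had 47.3, 48.9 and 51.1 RPKM against 42.7, 43.6 and 43.7 (-0.18, SE 0.07, adjusted p = 0.09). Snhg8 had 51.8, 50.6 and 50.1 RPKM against 42.2, 46.4 and 44.8 (-0.19, SE 0.07, adjusted p = 0.057). Both were separate between the groups, and both passed the test with 7 of the settings that keep all libraries, cyclic loess among them (adjusted p = 0.0013 for Gas5 and 0.0035 for Snhg8). Snhg1 (-0.07), Snhg3 (-0.12) and Snhg6 (-0.09) had adjusted p of 0.59, 0.46 and 0.39. In this contrast 1 of 6 host genes was called lower and 0 higher, against 14.3% and 12.3% of all tested genes, and 3 did not overlap, against 42.3%.

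Complex I inhibition in cells without OHT (IACS against untreated) called none of the 6 host genes under the median-ratio scaling, against 8.15% of all tested genes called higher and 7.74% lower. At an unadjusted p under 0.05 there was 1 of 6, Snhg1, beside 2969 of the 9745 tested genes. Voom on the read numbers also called 0, beside 10.2% of all tested genes higher and 8.65% lower. Snhg1 had 46.2, 42.2 and 42.9 RPKM in untreated cells and 36, 39.5 and 39.4 RPKM with IACS-010759. Every IACS value lay below every untreated value, and the log2 change was -0.19 (SE 0.08, adjusted p = 0.13). Cyclic loess gave -0.22 and called it (adjusted p = 0.0092), as did quantile normalization, the library total as a covariate, the scaling on genes of 0.3 to 0.8 reads per base and the fit on the compared groups alone. Snhg12 was also separate (-0.11, SE 0.06, adjusted p = 0.26). These 2 genes compare with 38.6% of all tested genes without overlap. Gas5 changed by 0.02 (95% interval -0.14 to 0.17), Snhg3 by -0.10 (-0.33 to 0.12), Snhg6 by 0.12 (-0.04 to 0.27) and Snhg8 by -0.02 (-0.18 to 0.13).

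In OHT-primed cells (OHT_IACS against OHT) none of the 6 host genes was called either, while 11.9% of all tested genes were called higher and 11.8% lower. Snhg6 was higher, with 28.5, 26.8 and 25.7 RPKM in OHT and 29.4, 32.3 and 30.7 RPKM in OHT_IACS, without overlap (log2 change 0.19, SE 0.07, adjusted p = 0.069). It was the only separate host gene, against 36.9% of all tested genes, and cyclic loess called it (0.23, adjusted p = 0.02). Snhg1 was lower in mean, at 41.5 ± 5.8 against 36.5 ± 0.581 RPKM (SD, n = 3), with overlap (-0.18, SE 0.08, adjusted p = 0.13). Without OHT replicate 2 the Snhg1 change was -0.26 and passed the test (adjusted p = 0.019). Snhg3 (-0.15), Snhg12 (-0.09), Gas5 (-0.05) and Snhg8 (-0.03) had adjusted p of 0.32, 0.32, 0.68 and 0.78. At an unadjusted p under 0.05 there were 2 of 6 host genes, beside 3621 of the 9745 tested genes. Voom called 0 of the 6, beside 12.7% of all tested genes higher and 11.7% lower.

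No host gene showed a difference between the inhibitor's effect with and without OHT. The interaction ranged from -0.06 for Gas5 to 0.07 for Snhg6, with adjusted p of 0.78 to 0.98. Of the 6 host genes 0 were called, against 0.144% of all tested genes. At an unadjusted p under 0.05 there were 0 of 6, beside 1240 of the 9745 tested genes. The 95% interval of the interaction was -0.37 to 0.28 for Snhg3, the widest, and -0.17 to 0.22 for Snhg12, the narrowest. The contrasts above share libraries in pairs, so their values are set side by side without a count of agreement.

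**Figure D3:**
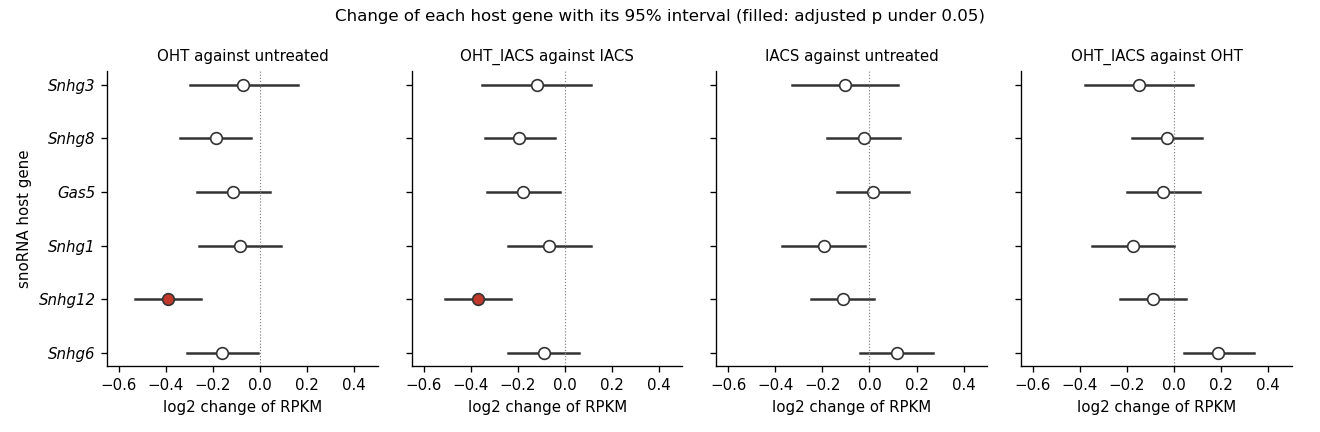
Log2 change of the 6 host genes in the 4 contrasts (horizontal axes) with 95% intervals, filled where the adjusted p is under 0.05. Snhg12 is filled in both OHT contrasts, at -0.39 and -0.37, and no host gene is filled in the contrasts of IACS-010759.

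GENCODE places 25 genes of the snoRNA class inside the 6 hosts on the same strand, and 7 had a row in the table. Snord22 (in Snhg1) and Snord99 (in Snhg12) were listed at 0 in every library. The remaining 5 passed the filter on low values: Snord47 of Gas5, Snord87 of Snhg6, and Snora16a, Snora44 and Snora61 of Snhg12. Their sequences, from GENCODE vM21, are shown because each had a row of its own in the table. How reads shared with the host were assigned is not given in the sources used here, and the counted lengths were mostly shorter than the printed sequences, 62 bases for Snora61, 65 for Snord47, 74 for Snord87 and 117 for Snora44. Capitals mark the C and D boxes of the C/D class, which guides 2′-O-methylation, and the ACA box near the 3′ end of the H/ACA class, which guides pseudouridylation, where these letters were found.
Snord47, chr1:161038082-161038158 (+): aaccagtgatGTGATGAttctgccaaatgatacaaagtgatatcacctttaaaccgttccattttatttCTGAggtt
Snord87, chr1:9942463-9942549 (-): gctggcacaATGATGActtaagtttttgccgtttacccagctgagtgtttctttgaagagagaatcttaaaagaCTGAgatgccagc
Snora16a, chr4:132309465-132309600 (+): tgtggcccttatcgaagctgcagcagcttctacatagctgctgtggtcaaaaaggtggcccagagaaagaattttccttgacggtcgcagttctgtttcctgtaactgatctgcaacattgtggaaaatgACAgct
Snora44, chr4:132309941-132310069 (+): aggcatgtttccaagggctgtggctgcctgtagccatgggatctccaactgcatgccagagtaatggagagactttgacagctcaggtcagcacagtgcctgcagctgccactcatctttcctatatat
Snora61, chr4:132310240-132310369 (+): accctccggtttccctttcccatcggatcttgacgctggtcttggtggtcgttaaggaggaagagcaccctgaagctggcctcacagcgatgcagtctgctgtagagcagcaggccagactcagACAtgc

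The 3 snoRNA genes inside Snhg12 fell with OHT as their host did. Snora16a had 68, 65 and 68 reads in untreated cells and 42, 36 and 31 reads with OHT, or 35.5 ± 2.38 against 23.3 ± 6.42 RPKM (log2 change -0.64, SE 0.14, adjusted p = 0.0035). Snora44 had 78, 73 and 80 reads against 35, 55 and 45, or 47.5 ± 3.64 against 32.6 ± 2.69 RPKM (-0.54, SE 0.11, adjusted p = 0.0016). Snora61 had 79, 83 and 86 reads against 52, 53 and 56, or 96 ± 2.22 against 75.2 ± 13.1 RPKM (-0.37, SE 0.13, adjusted p = 0.035). Groups did not overlap in RPKM for any of these 3 genes, against 46% of all tested genes. Snora16a and Snora44 passed under all 25 other settings, and Snora61 under 18 of them. Its highest adjusted p was 0.1, and it missed the threshold with no filter, with no mean-variance trend, in the compared groups alone and without OHT replicate 2 or any untreated replicate.

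Snord47, in an intron of Gas5, had 46, 35 and 39 reads in untreated cells and 23, 28 and 22 with OHT. The RPKM values did not overlap (44.5 ± 8.4 against 32.1 ± 2.65, log2 change -0.46, SE 0.12, adjusted p = 0.011), although Gas5 itself was not called. Among the 25 other settings 24 called Snord47, and voom did not (adjusted p = 0.073). Whether Snord47 and Gas5 differed in their change was not tested. Snord87 in Snhg6 had 25, 21 and 21 reads in untreated cells and 13, 17 and 21 with OHT (-0.16, SE 0.23, adjusted p = 0.61), and its interval of -0.65 to 0.33 was the widest of the 5. Reads of these short fragments can come from mature snoRNA or from unspliced host RNA, and all 4 snoRNA genes of Snhg12 with a row also overlap exons of annotated Snhg12 transcripts that keep no intron in the annotation.

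Under IACS-010759 the OHT contrast gave -0.34 for Snora44 (SE 0.11, adjusted p = 0.031). Snora44 was the only snoRNA of the 5 called there, beside 14.3% of all tested genes lower and 12.3% higher. This call was lost in 9 of the 25 other settings. Snora16a (-0.26), Snora61 (-0.31), Snord47 (-0.31) and Snord87 (-0.26) had adjusted p of 0.21, 0.087, 0.08 and 0.44. IACS-010759 alone called none of the 5, beside 8.15% of all tested genes higher and 7.74% lower. Their adjusted p ran from 0.065 for Snora44 to 0.66 for Snord87. Across the table, 79 Snora and Snord genes were tested, a group chosen after values were seen. With OHT 15 were called lower, 19% beside 18.2% of all tested genes, and 2 higher, 2.53% beside 18.2%, with a median of -0.216. With IACS-010759 alone 11 were called lower, 13.9% beside 7.74%, and 0 higher, with a median of -0.248.

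**Figure D4:**
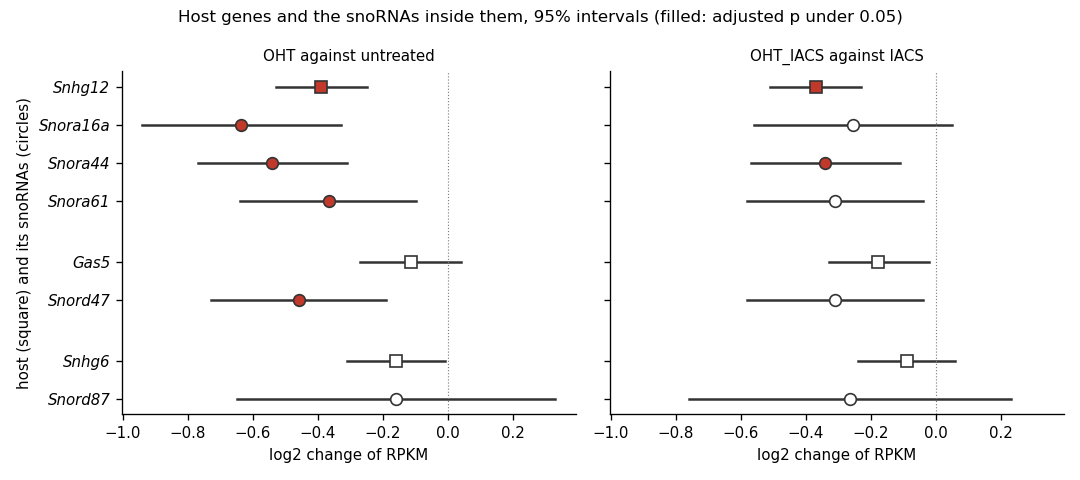
Log2 change with OHT, without (left) and with (right) IACS-010759, for the 3 hosts with a measured snoRNA (squares) and those snoRNAs (circles), with 95% intervals and filled where the adjusted p is under 0.05. Snhg12 and its 3 snoRNA genes are filled at left, and Snord47 is filled at left beside an open Gas5.

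Snhg1 starts 106 bases from Slc3a2, which is read in the opposite direction and encodes the heavy chain of amino acid transporters and is a known ATF4 target. Slc3a2 had 38, 35.9 and 37.9 RPKM in untreated cells and 47.8, 45.5 and 50.2 RPKM with IACS-010759. All IACS values lay above all untreated ones (log2 change 0.36, SE 0.06, adjusted p = 0.001), while Snhg1 changed by -0.19. In primed cells Slc3a2 rose by 0.29 (SE 0.06, adjusted p = 0.0028) beside -0.18 for Snhg1. Both Slc3a2 calls held in all 25 other settings. With OHT alone Slc3a2 changed by 0.17 (adjusted p = 0.035), a call that 11 of 25 settings lost, cyclic loess included (0.06, adjusted p = 0.18). Among 16 tested ATF4 targets, 12 were called higher, 75% beside 8.15% of all tested genes, and 0 lower with IACS-010759 alone, and the median change was 0.451 beside 0 of the 6 host genes called higher. ATF4 is the transcription factor of the integrated stress response, in which translation is known to be held back.

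**Figure D5:**
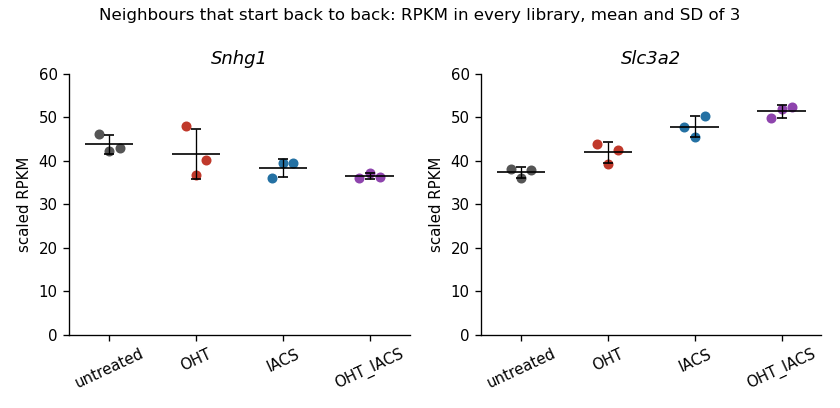
Scaled RPKM of Snhg1 and Slc3a2 (vertical axes, from 0 to a common limit) in the 4 conditions, with single libraries as points and the mean and SD of 3. Slc3a2 went from 37.3 in untreated to 51.3 in OHT_IACS cells, and Snhg1 from 43.8 to 36.5.

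The other neighbours moved in several ways. Trnau1ap, a factor of selenocysteine incorporation 738 bases beyond Snhg12 on the opposite strand, fell with OHT (-0.38, SE 0.12, adjusted p = 0.027), and 6 of 25 settings lost the call. Its change under IACS-010759 was -0.06 (adjusted p = 0.76), where Snhg12 fell by 0.37 on the log2 scale. Prss12, a protease gene 954 bases beyond Snhg8, fell with OHT (-0.73, SE 0.10, adjusted p = 0.00014). Zbtb37, which starts 427 bases from Gas5 and overlaps it on the other strand, stood at 1.83 RPKM in untreated cells and was not called (-0.16, adjusted p = 0.45). Wdr74, a ribosome assembly factor beyond Snhg1, rose with OHT (0.25, SE 0.07, adjusted p = 0.012). Rcc1, the nucleotide exchange factor of Ran, which spans Snhg3, gave a log2 change of -0.00 with OHT (adjusted p = 0.97). Phactr4, upstream of Snhg3, gave -0.06 (adjusted p = 0.63). Mcmdc2, Tcf24, Ndst3 and Rab42 were not tested. Myc itself fell with OHT (-0.81, SE 0.05, adjusted p = 1.7e-07) and rose with IACS-010759 (0.34, SE 0.05, adjusted p = 0.00099).

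By Pearson correlation of log2 levels over the 12 libraries, which share their conditions and depths, the tested genes most like Snhg12 were Cuta (r = 0.984), Stra13 (0.980) and Slc6a13 (0.971). For Snhg8 they were Gpr137 (0.952), Cd48 (0.944) and Dera (0.935), and for Gas5 Ensa (0.929), Eri1 (0.924) and Prdx5 (0.915). Snhg1 was most like Abracl (0.950), Gtf2a2 (0.938) and Tpm1 (0.935). Snhg3 was most like Dtymk (0.913), Sat1 (0.898) and the host gene Snhg1 (0.870). Snhg6 was most like Ndfip2 (0.943), Gal3st4 (0.883) and Ap1g2 (0.875). These are the highest values among all other tested genes and serve as descriptions.

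Of 15 other host genes without a protein product, 10 were matched in the table and 8 tested. With OHT 2 were called lower, 25% of 8 genes beside 18.2% of all tested genes, and 0 higher, and their median was -0.166. Dancr, the host of Snora26, had 16.1, 17.9 and 16.2 RPKM in untreated cells and 14, 12.1 and 10.5 RPKM with OHT (-0.46, SE 0.11, adjusted p = 0.0054). It fell likewise under IACS-010759 (-0.49, SE 0.11, adjusted p = 0.0049), with no overlap in either contrast. The first call was lost with the library total as a covariate (adjusted p = 0.061), and the second held in all 25 settings. Snhg20, listed as 2810008D09Rik, fell with OHT (-0.35, SE 0.12, adjusted p = 0.039), and 8 of 25 settings lost this call. Snhg17, listed as 9430008C03Rik, gave -0.15 (SE 0.06, adjusted p = 0.05), and Zfas1, listed as 1500012F01Rik, gave -0.04 (adjusted p = 0.67). IACS-010759 called 0 of the 8 without OHT, beside 8.15% of all tested genes higher and 7.74% lower. In primed cells it also called 0, beside 11.9% and 11.8%.

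Protein-coding snoRNA hosts had a positive median with OHT, and one of -0.009 in primed cells (OHT_IACS against OHT). Among 34 tested, 3 were called higher, 8.82% beside 18.2% of all tested genes, and 0 lower with OHT, and the median change was 0.191. Ncl, which encodes nucleolin and hosts snoRNAs in its introns, rose by 0.31 (SE 0.05, adjusted p = 0.00059), a call kept in all 25 settings. Rpl23a, a ribosomal protein gene that hosts snoRNAs, rose by 0.32 (SE 0.10, adjusted p = 0.024). Ribosomal protein genes also begin at TOP starts. Of 81 tested, 6 were called higher, 7.41% beside the same 18.2%, and 0 lower with OHT (median 0.204). Ribosomal protein genes that host snoRNAs, Rpl23a among them, stand in both groups, so the counts and medians of these groups are not independent. These genes are abundant, and under cyclic loess the medians were 0.036 for the coding hosts and 0.047 for the ribosomal proteins, with 4 and 7 called higher and 3 and 4 lower. Over all tested genes 18.3% were called higher and 19.4% lower under that setting. The median of the 6 noncoding hosts under cyclic loess was -0.232. With IACS-010759 alone 0 coding hosts were called, beside 8.15% of all tested genes higher and 7.74% lower. Of the ribosomal protein genes only Rpl22 was called (0.42, SE 0.08, adjusted p = 0.0028).

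Proteins that bind and assemble snoRNAs were higher with OHT in 8 of 18 tested genes, 44.4% beside 18.2% of all tested genes, and lower in 0 (median 0.200). Naf1, an assembly factor of H/ACA particles, rose by 0.62 (SE 0.07, adjusted p = 1.9e-05), and Znhit6, an assembly factor of C/D particles, by 0.53 (SE 0.09, adjusted p = 0.00044). Naf1 also rose with OHT under IACS-010759 (0.43, SE 0.07, adjusted p = 0.00056). Under cyclic loess 8 were called higher and 2 lower with OHT, beside 18.3% and 19.4% of all tested genes. With IACS-010759 alone 0 were called higher and 1 lower, beside 8.15% and 7.74% of all tested genes. The 1 was Znhit3 (-0.46, SE 0.08, adjusted p = 0.0021), which fell again in primed cells (-0.51, adjusted p = 0.00085).

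Factors of the decay machinery moved in both directions with OHT and in primed cells. Of 22 tested factors of nonsense-mediated decay, IACS-010759 alone called 1, Casc3 of the exon junction complex, higher (0.20, SE 0.06, adjusted p = 0.029, lost in 6 of 25 settings), and 0 lower, a share of 4.55% beside 8.15% of all tested genes. In primed cells 3 were called higher and 4 lower, 13.6% and 18.2% beside 11.9% and 11.8% of all tested genes, with Casc3 at 0.28 (adjusted p = 0.0044) and Dhx34 at 0.37 (adjusted p = 0.021), and with Pnrc2 at -0.39 (adjusted p = 0.00079) and Upf2 at -0.31 (adjusted p = 0.017). With OHT 6 were called higher and 2 lower, 27.3% and 9.09% beside 18.2% in each direction over all tested genes, among them Magohb, also of the exon junction complex (0.52, SE 0.14, adjusted p = 0.0096), and the decapping enzyme Dcp2 (-0.35, SE 0.07, adjusted p = 0.0012). Scaled on the genes of 0.3 to 0.8 reads per base these became 2 and 3, beside 7.74% and 23.7% of all tested genes.

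Protein-coding transcripts known as decay targets were mostly higher with IACS-010759. Of 7 tested, 4 were called higher and 1 lower, beside 8.15% and 7.74% of all tested genes (median 0.241). Ddit3, the stress transcription factor CHOP, rose by 1.17 (SE 0.07, adjusted p = 1.2e-07), and Gadd45a, a growth-arrest gene, by 0.85 (SE 0.09, adjusted p = 3.8e-05). Gadd45b fell (-0.68, SE 0.10, adjusted p = 0.00043). In primed cells 3 were called higher and 1 lower, beside 11.9% and 11.8% of all tested genes, with Gadd45a at 0.84 and Ddit3 at 0.76. Several of these genes are also known to be induced by transcription in stress. Among 7 other tested long noncoding RNAs, Mir17hg, the host of a microRNA cluster, fell with OHT (-0.45, SE 0.08, adjusted p = 0.00088), with IACS-010759 (-0.30, SE 0.08, adjusted p = 0.023, lost in 6 of 25 settings) and with OHT under IACS-010759 (-0.24, adjusted p = 0.042, lost in 12). Malat1 rose in primed cells (0.22, SE 0.07, adjusted p = 0.044), and no other was called. A last group, chosen after values were seen, held all 117 tested genes of RefSeq's long noncoding class other than the 6 host genes. Other snoRNA hosts were not taken out of it. With OHT 22 were called lower and 8 higher, 18.8% and 6.84% beside 18.2% in each direction, and the median was -0.101.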

How the data were processed

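Total RNA of 12 libraries (3 per condition, described by the study as biological replicates) was depleted of ribosomal RNA and sequenced from a strand-specific kit. Per the labels' processing notes the authors used TopHat2 2.0.8, featureCounts 1.4.5-p1, SAMtools, DESeq2 and the build mm9, and whether counting used strand is not given in the sources used here. The deposited values were RPKM per gene. The deposited columns of the authors' 3 comparisons, log2 fold changes and adjusted p-values from DESeq2, were not used, and 0 other sample columns were left out. Coordinates and names come from GENCODE vM21 and RefSeq (GRCm38), matched by symbol, since no mm9 annotation was used here.

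RPKM values of all 15451 genes above 0 were whole multiples of the value of 1 read, to a relative tolerance of 1e-09, which gave reads, counted lengths and library totals. RPKM were divided by library factors (median ratio to the geometric mean, 0.971 to 1.02). The 9745 genes that reached an RPKM of 1 in 3 or more libraries were kept, log2(RPKM + 0.1) was computed, and limma 3.58.1 (R 4.3.3) with a mean-variance trend was fitted to all 12 libraries, two-sided, with Benjamini-Hochberg adjustment over all tested genes and a threshold of 0.05. A fold change on this scale slightly understates that of low genes. On data simulated for OHT against untreated over 9745 genes, 196 of 200 genes given a log2 change of 1 were called, and 11 unchanged genes were too. Among genes below 0.1 reads per base, read numbers of replicates differed by more than sampling noise in every pair. The host genes lie at more reads per base and were not part of this check. A count model was not the main test because the deposited unit is RPKM, and limma voom on the recovered reads was an alternative.

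The members and gene lists were chosen with earlier results of these data known. Named were the 6 members, snoRNA genes inside them, the nearest protein-coding gene on either side, the 3 most correlated genes of each, for each list the 2 largest called rises and falls, Myc, and other genes where the text turns on them. Some genes under this rule are not reported here. Alternatives comprised 2 pseudocounts, 2 filters, other normalizations, a depth covariate, a replicate block, voom, no trend, the compared groups alone and leaving out each library. Scaling on genes of 0.3 to 0.8 reads per base was added after the data were seen.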

Additional observations from a re-analysis of the deposited data

How the results depend on the processing

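The fall of Snhg12 with OHT held under all 25 other settings in both backgrounds. Of 744 values of single host genes under other settings, 646 kept their direction and side of the threshold, 52 passed it only there and 46 changed sign. Host genes called with OHT numbered 2 with RPKM of at least 5 and with voom, 6 with quantile and cyclic loess normalization, 4 with the library total as a covariate and 5 when scaled on genes of 0.3 to 0.8 reads per base, and 1 to 4 when each library was left out. All were called lower, beside 11.9% to 23.7% of all tested genes under the named settings. With IACS-010759 alone there was 1 under quantile, cyclic loess, the compared groups alone, the covariate and the 0.3 to 0.8 scaling (0 to 1 leaving out libraries), and in primed cells 1 under quantile, cyclic loess and the 0.3 to 0.8 scaling (0 to 1). Under the named settings the former was lower, beside 5.59% to 9.91% of all tested genes. The latter was higher, beside 11% to 14.1%. For OHT under IACS-010759 there were 3 with RPKM as deposited, quantile, cyclic loess, the compared groups, the covariate, voom and the 0.3 to 0.8 scaling (1 to 3). These were lower, beside 11.4% to 15.7% of all tested genes under the named settings. Why the counts differ between settings was not tested. All genes called numbered 2351 with OHT under the covariate, against 3546, and 955 and 1490 for IACS-010759 without and with OHT under the 0.3 to 0.8 scaling. Leaving out libraries gave 2651 to 4126, 950 to 1806, 1521 to 2950 and, for OHT under IACS-010759, 1884 to 2836. Genes with a called interaction, 14, became 7 with no filter, 5 as deposited, 34 with quantile, 32 with cyclic loess, 5 with the covariate, 25 with voom, 7 with the 0.3 to 0.8 scaling and 3 to 130 leaving out libraries, 130 without OHT replicate 2. The interaction could not be refitted on the compared groups alone.

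With the replicate number as a block 7 interactions were called and no count of host genes changed. Same-numbered libraries correlated at -0.172 to 0.104 in their deviations, and differently numbered ones at -0.182 to 0.168. Between untreated and OHT cells these were 0.083 to 0.104 and -0.080 to -0.009. Whether the numbers mark pairs is therefore not settled.

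The values that changed sign had adjusted p of at least 0.44 as reported and of at least 0.45 where the sign changed. For IACS-010759 alone Gas5 gave -0.020 (quantile), -0.021 (cyclic loess), -0.062 (covariate), -0.006 (0.3 to 0.8 scaling) and -0.013 to 0.043 leaving out libraries, and Snhg8 0.003 (as deposited) and -0.061 to 0.006 leaving out libraries. In primed cells Gas5 gave 0.008 (0.3 to 0.8 scaling) and -0.118 to 0.050 leaving out libraries, and Snhg8 0.012 (cyclic loess), 0.023 (0.3 to 0.8 scaling), and -0.080 to 0.049 leaving out libraries. With OHT, leaving out libraries gave -0.191 to 0.001 for Snhg1 and -0.198 to 0.015 for Snhg3, both highest without OHT replicate 2 and lowest without OHT replicate 1. For the interaction, quantile, cyclic loess, covariate and 0.3 to 0.8 scaling gave 0.005, 0.018, 0.029 and 0.014 for Gas5, 0.064, 0.045, 0.089 and 0.030 for Snhg3 and 0.056, 0.076, 0.050 and 0.070 for Snhg8, voom gave 0.001 for Snhg8, and values as deposited gave -0.012 for Snhg1 and -0.007 for Snhg12. Leaving out libraries gave -0.134 to 0.034 for Gas5, -0.067 to 0.122 for Snhg1, -0.131 to 0.079 for Snhg3, -0.010 to 0.129 for Snhg6, -0.055 to 0.074 for Snhg8 and -0.044 to 0.089 for Snhg12. With 11 to 86 reads a library, the snoRNA genes limit detection of small changes.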
